A study of Mus musculus with 42 samples.

Results

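Cyclin D1 (gene symbol Ccnd1) was followed in RNA from 21 mouse mammary tumours, measured on 42 two-colour arrays of long oligonucleotide probes. Its member probes were those that the platform annotation gives to Ccnd1. There was 1 such probe among 22800 on the array, and 1 such gene among 15096 named genes. The probe had a value on all 42 arrays. The gene was taken up because its level was already known to vary between these tumours and to run against that of Myc. Its levels are therefore a description, and the tests on it show only how large its variation was beside array error.

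The tumours arose in mice of the strain FVB/N-Tg(WapMyc)212Bri, which carry a Myc transgene under the promoter of whey acidic protein, a milk protein of the mammary epithelium. Per the labels, 4 lines were derived from such tumours by passage in living mice. They were glandular, solid or comedo without lung metastases, solid or comedo with lung metastases, and spindloid, the last made of mesenchymal cells. The labels give a tumour number for each array but not the line of any tumour. Every tumour carries the transgene, and no normal mammary gland or tumour without it was analysed here. Tumours of 1 transplanted line are not independent animals of a group. Each tumour was hybridised on a dye-swapped pair of arrays against a universal mouse reference RNA, so the 2 arrays of a tumour are technical repeats. The 5 tumours numbered 644, 646, 647, 649 and 673, set apart by high Vim (vimentin, the intermediate filament protein of mesenchymal cells), were compared with the other 16. The labels do not say whether these 5 are the spindloid line.

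Cyclin D1 is the regulatory partner of the cyclin-dependent kinases Cdk4 and Cdk6. Growth factor signals raise its transcription, and the active kinase phosphorylates the retinoblastoma protein, which then releases E2F factors that switch on genes for DNA synthesis. The protein is short-lived, being exported to the cytoplasm and degraded during S phase. In the mammary gland of the mouse it is needed for the alveolar growth of pregnancy, and it is a frequent target of amplification in human breast cancer.

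Values are log2 ratios of tumour over reference RNA, turned to a single dye orientation and centred on the median of each array, so a value of 0 is the level of the array's middle probe. Which array of a pair carried which dye was recovered from the data, and a positive median of Myc was used to choose the sign of all arrays together. The direction against the reference is therefore a choice and is not settled, and Myc above 0 restates it. With the opposite overall sign, every level and difference below would change sign, including those of Vim and Myc. The relative orientation of the 5 and the 16 tumours rests on the correlation of their profiles. After turning, that correlation was above 0 for 79 of 80 pairs (median 0.20, lowest -0.04). The turning was chosen from these same correlations, so the count is no separate check of it. If the arrays of the 5 tumours alone were turned the other way, their Ccnd1 means would run between -2.05 and -0.91 and would lie among those of the 16. Their Myc means would then run between 0.21 and 0.71, still below the lowest of the 16, at 1.65. Vim would stay apart too, since its means ran up to 1.23 in the 5 but were at -3.15 or lower in the 16. The separation in Ccnd1 thus depends on this relative orientation.

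Arrays held 8600 to 21328 measured probes, and their medians before centring ran between -1.38 and 1.22. The arrays of tumour 656 had a raw correlation of 0.07 over probes. Those of the other 20 tumours were below 0, as dye-swapped pairs are, but some only slightly. They ran between -0.565 in tumour 641 and -0.058 in tumour 639. In the tumours with high Vim they were -0.06 in 647, -0.089 in 646, -0.209 in 649, -0.299 in 673 and -0.312 in 644. For Ccnd1 the 2 arrays of tumour 656 were close all the same, at -2.05 and -2.09. Without tumour 656 the Ccnd1 difference between the sets below was 2.77 in place of 2.82.

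Ccnd1 was high in the 5 tumours with high Vim and low in the other 16, with no overlap between the sets in tumour means. Tumour 646 had Ccnd1 values of 2.34 and 1.76 on its 2 arrays. Tumour 649 had 2.00 and 1.86, and tumour 647 had 1.92 and 1.44. Tumour 673 had 0.81 and 1.36, and tumour 644 had 1.19 and 0.64. All 10 arrays of these 5 tumours were thus above 0. In the other 16 tumours the array values ran between -2.27 and 0.69, and 31 of 32 arrays were below 0. The exception was replicate 2 of tumour 670, at 0.69, whereas replicate 1 of that tumour read -1.14. Its 0.69 lay above the 0.64 of an array of tumour 644, so the sets overlapped on single arrays. Without replicate 2 of tumour 670 the highest of the 16 tumours' arrays was at -0.58.

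The mean Ccnd1 level was 1.53 ± 0.51 (SD, n = 5 tumours) in the tumours with high Vim and -1.29 ± 0.47 (SD, n = 16 tumours) in the others. The difference of 2.82 on the log2 scale is a 7.07-fold higher level. It ranked 138 of 7629 genes by size in that direction. Overlap of the sets is judged by tumour means unless arrays are named. Sets that do not overlap were found for 461 of 7629 genes higher in the 5 (6.04%) and for 110 lower in the 5 (1.44%). The median difference over all genes was 0.06. Because the 5 tumours were chosen on Vim, a gene measured on the same arrays, and Ccnd1 was chosen with this pattern known, no test of the 5 against the 16 is given.

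**Figure D1:**
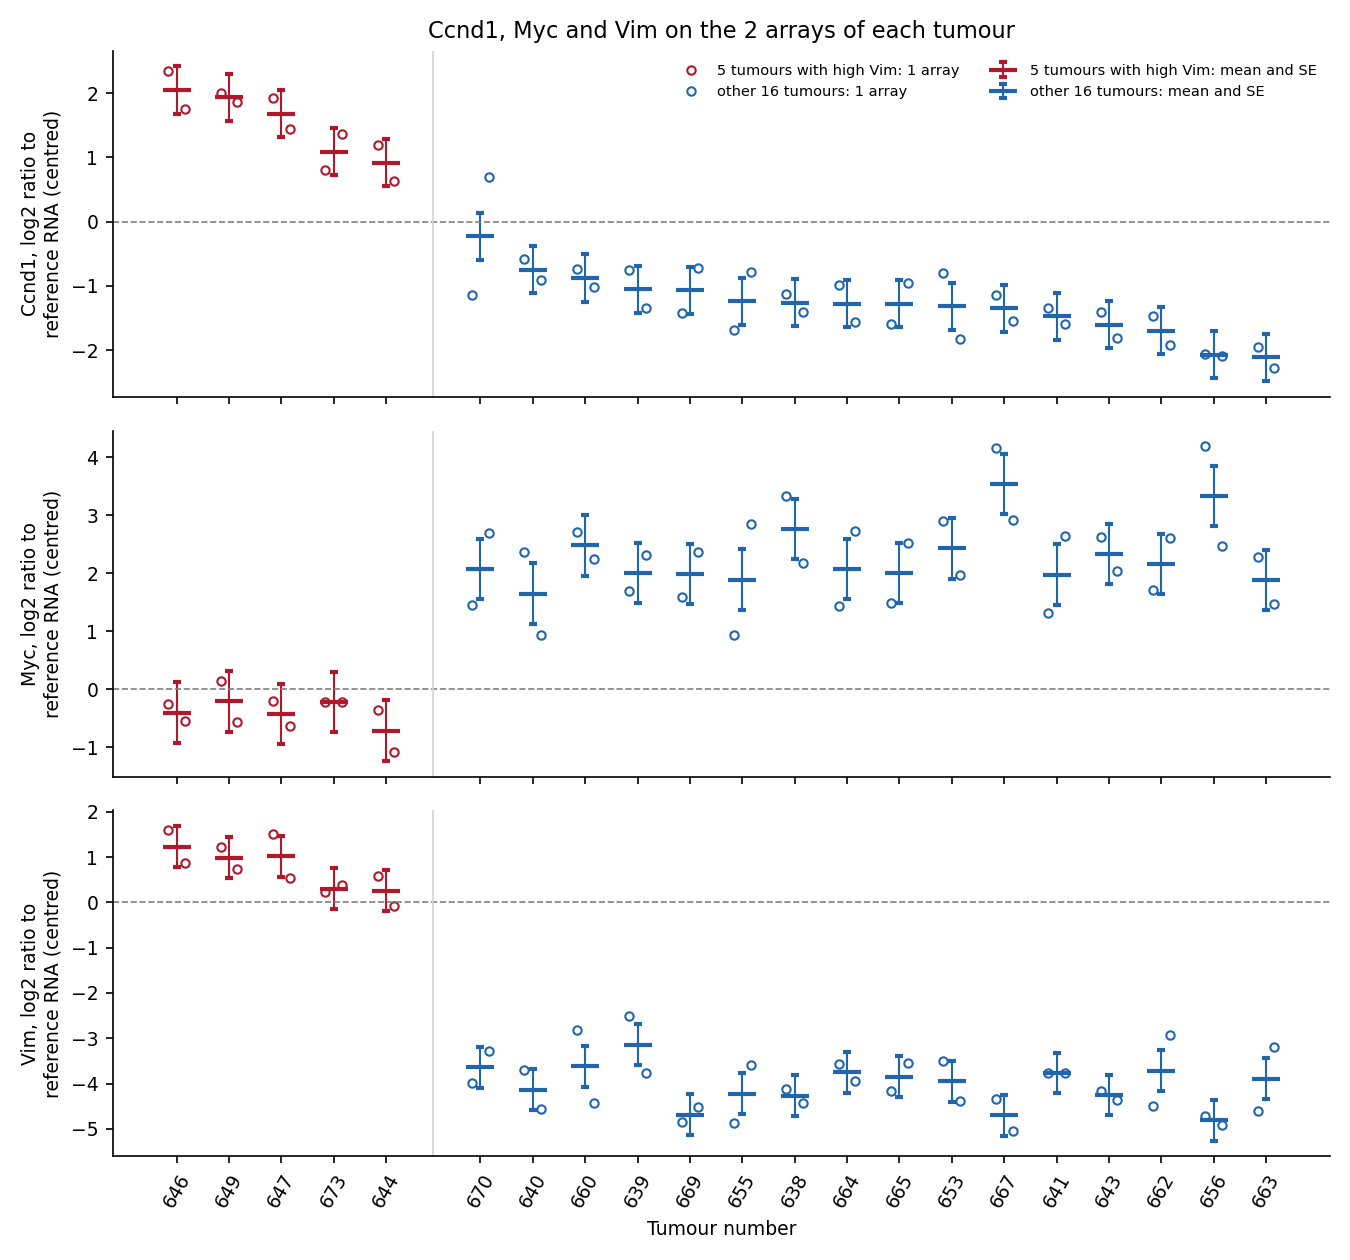
Levels of Ccnd1, Myc and Vim in each of 21 tumours, on the vertical axis as log2 of tumour over reference RNA centred on the array median. Points are the 2 arrays of a tumour and bars mark their mean. Whiskers show the standard error from the fit over all tumours, not the spread of the 2 arrays. The 5 tumours with high Vim stand on the left and the other 16 on the right, and Ccnd1 means run between 0.91 and 2.05 in the 5 and between -2.11 and -0.23 in the 16.

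Over the single tumours the order of Ccnd1 means began with 663 at -2.11 and 656 at -2.07. Next came 662 at -1.70, 643 at -1.61 and 641 at -1.47. Tumours 667, 653, 665, 664, 638 and 655 were packed between -1.35 and -1.24. These 11 tumours are the lower and middle part of the order. Above them were 669 at -1.07, 639 at -1.05, 660 at -0.88, 640 at -0.75 and 670 at -0.23. The 5 tumours with high Vim closed the order, with 644 at 0.91, 673 at 1.09, 647 at 1.68, 649 at 1.93 and 646 at 2.05. Relative to the reference RNA and the array median, these means span 0.23-fold in tumour 663 to 4.13-fold in tumour 646.

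Most neighbours in this order could not be told apart. The standard error of a Ccnd1 tumour mean, from limma's fit over all tumours, was 0.37, which gives 0.52 for the difference between 2 tumours. Of 20 gaps between neighbours, 1 was over 2 such standard errors, the gap of 1.14 between tumour 644 and tumour 670. The next gaps were 0.59 between tumours 647 and 673 and 0.52 between tumours 670 and 640. All 80 pairs of a tumour with high Vim and another tumour were over 2 standard errors apart. Among the 16 tumours 16 of 120 pairs were that far apart, and among the 5 tumours it was 1 of 10 pairs. These counts describe sets already known to differ in Ccnd1 and are no test of them. The 2 arrays of tumour 670 differed by 1.83, more than the gap of 1.14 between its mean and that of tumour 644.

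In limma's moderated F test across the 21 tumours, with Benjamini-Hochberg adjustment over 9407 probes, Ccnd1 ranked 56 by F (adjusted p = 2.33e-06). Of all probes tested, 18.6% passed. Because each tumour's 2 arrays share an RNA, this p measures variation between tumours against hybridisation error only. Among the 16 tumours alone, Ccnd1 did not pass (adjusted p = 0.346, limma), where 11.8% of probes did. Among the 5 tumours alone it did not pass either (adjusted p = 1.0, unadjusted p = 0.139, limma), where 1 probe did, or 0.0106%. A p that misses the threshold does not show that these tumours had equal Ccnd1.

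Ccnd1 values were alike in the 2 dye orientations and in the slide runs that hold both sets. The array titles hold slide numbers that fall into 3 runs, and the labels do not say what a run is. In run 1 the mean was 1.39 on 3 arrays of the tumours with high Vim and -1.02 on 6 arrays of the others, a difference of 2.41. In run 3 the 7 arrays of the tumours with high Vim ran between 0.81 and 2.00 and the 13 arrays of the others between -1.82 and 0.69, with means 2.75 apart. Run 2 held 13 arrays of the 16 tumours (mean -1.55) and none of the 5. In the 2 dye orientations the difference was 2.89 and 2.75.

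Myc, the driving oncogene, ran the opposite way. The labels do not say whether its probe reads the transgene, the mouse's own gene or both. Myc means in the tumours with high Vim were -0.40 in 646, -0.21 in 649, -0.42 in 647, -0.23 in 673 and -0.71 in 644. In the other 16 tumours they ran between 1.65 in tumour 640 and 3.54 in tumour 667, with a median of 2.08. The sets do not overlap on any array, since the 10 arrays of the 5 tumours ran between -1.08 and 0.14 and the 32 arrays of the 16 between 0.93 and 4.19. The mean was -0.39 ± 0.20 (SD, n = 5) in the tumours with high Vim and 2.29 ± 0.52 (SD, n = 16) in the others, a difference of -2.68, or a 6.41-fold lower level. Myc also passed limma's F test across tumours (adjusted p = 8.12e-04). Its difference was -2.70 in run 1 and -2.73 in run 3.

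Vim itself averaged 0.76 ± 0.45 (SD, n = 5) in the tumours chosen on it and -4.03 ± 0.45 (SD, n = 16) in the others. Within the 5, the 3 tumours with the higher Ccnd1 (646, 649 and 647) also had the higher Vim, at 1.23, 0.98 and 1.02. Tumours 673 and 644 had 0.31 and 0.26. The lowest Myc of the 5 was in tumour 644, which also had the lowest Ccnd1. With 5 tumours, no relation is drawn from these orders.

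Over all 21 tumours the 2 sets stand apart in Ccnd1 and Myc, so the relation was examined within the 16. Like Ccnd1, neither Myc nor Vim passed the F test among the 16 (adjusted p = 0.705 and 0.708, limma). The standard errors of a tumour mean were 0.37 for Ccnd1, 0.52 for Myc and 0.45 for Vim. The SDs over the 16 tumours were little or no larger, at 0.47, 0.52 and 0.45. Array error could therefore hide a relation, and a small r here does not show its absence. There the Pearson correlation was -0.30 (permutation p = 0.256) and Spearman's rho was -0.21 (permutation p = 0.431), both two-sided and with n = 16. These p values stayed at 0.256 and 0.431 after Benjamini-Hochberg adjustment over the 2 relations examined, that with Myc and that with Vim. Without tumour 656 alone r was -0.08, and without tumours 656 and 667, the farthest from the median Myc, it was -0.05 over 14 tumours. On the deposited scale, without centring the arrays, r was 0.37 (permutation p = 0.155), so its sign depends on the centring. With Vim, r within the 16 was 0.32 (permutation p = 0.226, adjusted 0.256) and rho was 0.34 (permutation p = 0.205, adjusted 0.41). Without tumours 639 and 656 it was 0.09. With the slide run as a block, r with Myc within the 16 was -0.33 (permutation p = 0.209). Each run held at most 5 whole tumours of the 16, under the 6 taken here as the least for a correlation, so none is given within runs.

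**Figure D2:**
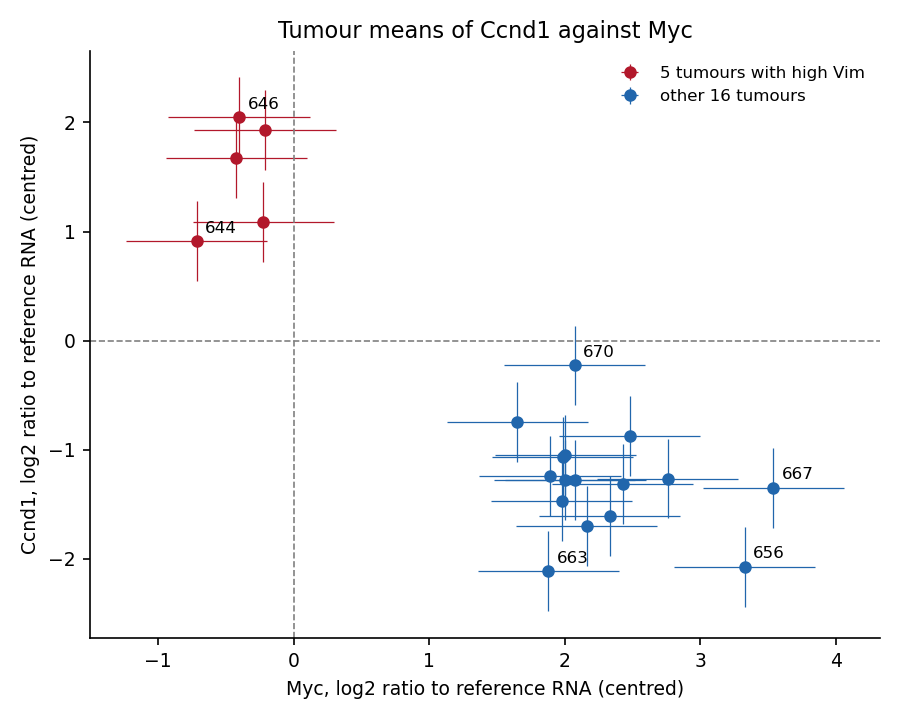
Ccnd1 against Myc tumour means, both as log2 of tumour over reference RNA centred on the array median, with 1 point for each of 21 tumours. Whiskers show the standard error of each gene from the fit over all tumours. The 5 tumours with high Vim lie at high Ccnd1 and low Myc, the other 16 lie at low Ccnd1 and high Myc, and within the 16 r was -0.30.

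Markers of cell types moved with the 2 sets, and their part in the Ccnd1 difference was not tested. In RNA of whole tumours, fewer cells of a type and less RNA per cell cannot be told apart. Vim, which chose the 5 tumours, is on the mesenchymal list and was taken out of it here. Of the 10 other tested mesenchymal markers, 8 passed the F test across tumours, where 19.6% of 7629 genes passed. Snai2 and Cald1 did not pass (adjusted p 0.506 and 0.33, limma), and their means were slightly lower in the 5. Snai2 averaged -1.20 in the 5 and -1.13 in 15 of the 16, and Cald1 -0.0056 in the 5 and 0.0166 in the 16. Of these 10 markers, 6 were higher in all 5 tumours than in any of the 16, as were 6.04% of all genes. Both shares over all genes apply to the other lists of this paragraph too. The mean of these 10 genes ran between 0.30 and 0.81 in the 5 tumours and between -3.79 and -1.57 in the 16. Of 7 tested genes of the fibrillar matrix all passed, and 6 did not overlap (list mean 0.35 to 2.08 in the 5, -4.62 to -1.68 in the 16). Of 9 tested macrophage markers all passed, and 6 did not overlap (list mean 1.88 to 2.53 in the 5, -1.60 to 0.75 in the 16).

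Most epithelial markers ran the other way, with 9 of 10 tested at a lower mean in the 5 tumours. The exception was Krt8, a keratin of simple epithelia, at 2.59 in the 5 and 1.75 in the 16 (adjusted p = 0.181, limma). Of the 10 genes, 7 passed and 4 were lower in all 5 tumours than in any of the 16 (list mean -0.69 to 0.29 in the 5, 0.99 to 2.87 in the 16). Over all genes 19.6% passed, 1.44% were lower in the 5 without overlap and 6.04% higher, shares that apply to each list here. All 3 tested milk genes passed, but their list means overlapped, at -0.30 to 1.66 in the 5 and 0.76 to 5.53 in the 16. Of 8 listed basal and myoepithelial markers 4 were tested, namely Acta2, Myh11, Cnn1 and Itgb4. All but Cnn1 passed, and Myh11 alone lacked overlap (list means of 0.41 to 1.50 in the 5 and -1.37 to 0.12 in the 16). Krt5, Krt14, Krt17 and Trp63 were not tested, so these means do not cover the basal keratins. Neither the 2 tested endothelial markers nor the 3 tested adipocyte markers passed limma's F test (0 and 1 at an unadjusted p under 0.05), and both list means overlapped between the sets. Within the 16 tumours the list means had correlations with Ccnd1 of 0.26 for mesenchymal genes without Vim, 0.39 for fibrillar matrix and 0.40 for adipocyte. They were 0.32 for basal, 0.30 for macrophage, 0.14 for endothelial, -0.07 for epithelial and -0.37 for milk genes. These are descriptions, since the list genes and Ccnd1 were read on the same arrays and against 1 reference.

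Counts in the lists around cyclin D1 are to be read against the shares over all 7629 genes tested, which were 19.6% passing the F test, 6.04% higher in the 5 without overlap and 1.44% lower. The F test asks whether any of the 21 tumours differ, not whether the 5 differ from the 16. Of the 107 tested genes of these lists, 14 passed among the 16 tumours alone, a share near the 11.7% of all genes. These 14 were all among the 22 list genes that passed across tumours. They were Cdkn1a, Cdkn1b, Rrm2, Cdc25a, Aurka, Kif11, Bub1b, Fgfr1, Ctnnb1, Lrp6, Cryab, Skp2, Dhcr7 and Mga, so the adjusted p beside their means is not one for the difference between the sets.

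Among the D cyclins and their kinases, Ccnd1 alone passed of 3 tested genes. Cyclin D3 (Ccnd3), which can partner the same kinases, averaged -0.12 in the tumours with high Vim and -0.79 in the others (adjusted p = 0.225, limma). Its ranges overlapped, at -0.46 to 0.19 in the 5 and -1.93 to -0.03 in the 16. Cdk4, the kinase that cyclin D1 activates, averaged -0.16 in the 5 and -0.20 in the 16 (adjusted p = 0.191, limma). Its difference of 0.04 turned negative under quantile normalization. Both genes thus had differences well under the 2.82 of Ccnd1, and how these differences compare was not tested.

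Cyclin D2 (Ccnd2) and Cdk6 were measured on too few arrays to be tested. The 2 probes of Ccnd2 had values on all 10 arrays of the tumours with high Vim but on 16 and 23 of the 32 arrays of the others. The first ran between -2.56 and -1.49 in the 5 tumours (median -2.17) and between -6.81 and -1.87 in 13 of the 16 (median -4.26). The second ran between -2.45 and -1.36 in the 5 (median -2.23) and between -6.34 and -2.05 in 14 of the 16 (median -4.10). Both probes therefore had the higher median in the tumours with high Vim, with overlapping ranges. Cdk6 ran between -1.83 and -0.66 in the 5 and between -3.88 and 1.42 in 14 of the 16.

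Of the inhibitors of cyclin-dependent kinases, 3 of 4 tested genes passed, against 19.6% of all genes. Cdkn2d (p19-INK4d, an inhibitor of Cdk4 and Cdk6) was higher in the tumours with high Vim without overlap, at -0.82 to 0.12 in the 5 and -5.83 to -0.90 in the 16 (difference 1.92, adjusted p = 0.0171, limma). Cdkn1a (p21, which binds several cyclin and kinase pairs) averaged -0.33 in the 5 and -1.18 in the 16 (adjusted p = 1.28e-03, limma). Its lowest value was -3.68, and its ranges overlapped. Cdkn1b (p27, a related inhibitor) averaged -0.38 in the 5 and 0.04 in the 16 (adjusted p = 0.0147, limma). The call of Cdkn1a held in every alternative run. That of Cdkn2d was lost with top values kept (adjusted p = 0.454) and that of Cdkn1b on the deposited scale (adjusted p = 0.749). Counting all alternatives, Cdkn2d lost its call in 2 of 7 and Cdkn1b in 3 of 8. Of the 3 genes, 2 thus averaged higher and 1 lower in the tumours with high Vim.

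None of the 9 tested pocket proteins and E2F factors, which act next after the kinase, passed limma's F test, and 2 had an unadjusted p under 0.05. E2f4, an E2F factor known mainly as a repressor, averaged 0.36 in the 5 tumours and -0.60 in the 16 (adjusted p = 0.0913, limma). Rbl2, a pocket protein that binds it, averaged -0.53 in the 5 and -1.05 in 14 of the 16 (adjusted p = 0.0789, limma, and 0.0232 after quantile normalization).

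Of 19 tested genes of S phase entry, many of them E2F targets, 2 passed across tumours, against 19.6% of all genes. None lacked overlap between the sets, which is near the shares of 6.04% and 1.44% over all genes. Rrm2, a subunit of ribonucleotide reductase, averaged -0.24 in the 5 tumours and 0.29 in the 16 (adjusted p = 0.0151, limma). Cdc25a, a phosphatase that activates Cdk2, averaged -0.87 in the 5 and -0.26 in 15 of the 16 (adjusted p = 0.0456, limma). The genes of this list most alike to Ccnd1 over tumours were Mcm4, part of the replication helicase (r 0.69), and Cdk2 (r 0.50), and neither passed (adjusted p 0.176 and 0.248, limma). Under alternatives the call of Rrm2 was lost with the slide run as a block (adjusted p = 0.136) and that of Cdc25a with top values kept (adjusted p = 0.485), and Mcm4 passed on the deposited scale (adjusted p = 0.0289). Counting all alternatives, Rrm2 lost its call in 3 of 8 and Cdc25a in 5 of 7, while Mcm4 passed in 2 of 8. Leaving out a single array removed the call of Cdc25a in 24 of 42 cases.

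Of 14 tested genes of G2 and mitosis, 4 passed (28.6%, against 19.6% of all genes) and none lacked overlap, again near the shares over all genes. Aurka, a kinase of the mitotic spindle, averaged -0.38 in the 5 tumours and 1.04 in the 16 (adjusted p = 2.44e-08, limma). Its 16 tumours were spread between -1.35 and 2.94 and also differed among themselves (adjusted p = 1.11e-07, limma). Ccnb2, a mitotic cyclin, ran the other way, averaging 0.50 in the 5 and -0.44 in the 16 (adjusted p = 0.0306, limma). Kif11, a spindle motor, averaged -0.44 in the 5 and -0.19 in the 16, and Bub1b, a checkpoint kinase, averaged -0.13 in the 5 and -0.23 in the 16, a difference whose sign turned under quantile normalization (adjusted p 0.0130 and 0.0336, limma). Cenpa, a histone variant of centromeres, was the gene of this list most alike to Ccnd1 (r 0.70) and did not pass (adjusted p = 0.798, limma). Leaving out a single array changed that call in 2 of 42 cases, with an adjusted p as low as 3.06e-03. The call of Aurka held in every alternative run. Those of Ccnb2 and Bub1b were lost on the deposited scale (adjusted p 0.0939 and 0.267), and that of Kif11 with the slide run as a block (adjusted p = 0.238). Counting all alternatives, Ccnb2 lost its call in 5 of 8, and Bub1b and Kif11 in 2 of 8 each. Over the 48 tested genes of these cell cycle lists other than Ccnd1, 9 passed (18.8%), 1 was higher in the 5 without overlap (2.08%) and none was lower, shares near or below those over all genes. Their median difference was 0.23, against 2.82 for Ccnd1 and 0.06 over all genes.

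**Figure D3:**
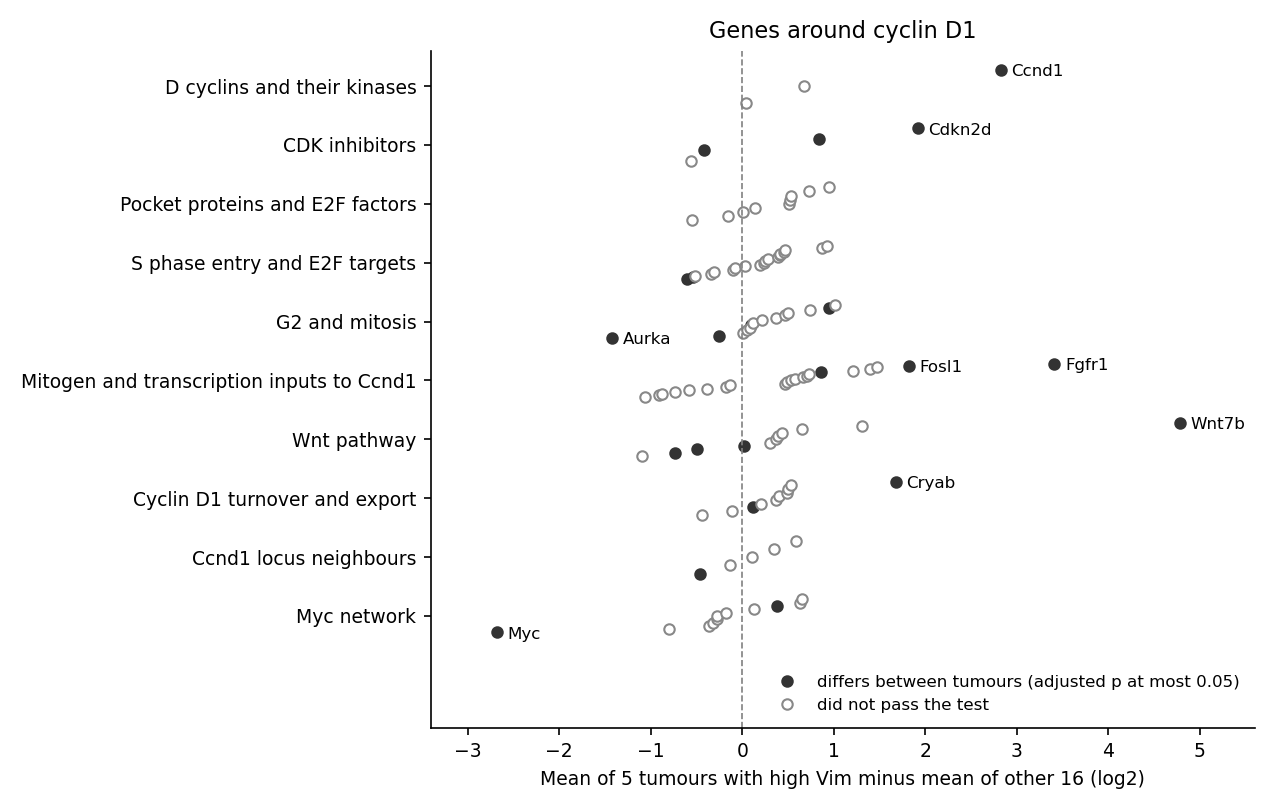
Mean of the 5 tumours with high Vim minus mean of the other 16, in log2 units on the horizontal axis, for each tested gene of 10 lists around cyclin D1. Filled points passed limma's F test across the 21 tumours and open points did not, and Wnt7b, Fgfr1, Ccnd1 and Myc lie farthest from 0 at 4.79, 3.41, 2.82 and -2.68.

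Among mitogen receptors and transcription factors that feed into Ccnd1, 3 of 21 tested genes passed (14.3%, against 19.6% of all genes). Sets without overlap were found for 2 (9.52%, against 6.04% of all genes), both higher in the tumours with high Vim. Fgfr1, a receptor for fibroblast growth factors, ran between 1.97 and 2.95 in the 5 tumours and between -4.79 and 0.89 in the 16 (difference 3.41, adjusted p = 3.14e-06, limma). Within the 16 its correlation with Ccnd1 was 0.02. Fosl1 and Junb encode subunits of AP-1, a factor known to act on the Ccnd1 promoter. Fosl1 averaged -0.54 in the 5 and -2.36 in the 16 (adjusted p = 0.0113, limma). Junb averaged -0.42 in the 5 and -1.27 in the 16 (adjusted p = 0.0245, limma). Ets1 was the second gene without overlap, at 0.18 to 0.52 in the 5 and -2.32 to 0.17 in the 16, but with a standard error of 1.00 it did not pass (adjusted p = 0.80, limma). Leaving out a single array moved that p as low as 0.0405. The call of Fgfr1 held in every alternative run, whereas those of Fosl1 and Junb were lost on the deposited scale (adjusted p 0.0743 and 0.271). Counting all alternatives, Fosl1 lost its call in 3 of 7 and Junb in 3 of 8.

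Of 11 tested Wnt pathway genes 4 passed (36.4%, against 19.6% of all genes). Wnt7b, a Wnt ligand, was higher in the tumours with high Vim without overlap, at 4.28 to 6.12 in the 5 and -2.82 to 2.76 in 14 of the 16 (difference 4.79, adjusted p = 1.14e-04, limma). Within those tumours its correlation with Ccnd1 was -0.36. Ctnnb1 (beta-catenin, the pathway's transcriptional effector) passed across tumours (adjusted p = 7.45e-04, limma), but averaged 0.36 in the 5 and 0.34 in the 16. The sign of that small difference turned on the deposited scale and under quantile normalization. The co-receptors averaged lower in the 5, with Lrp6 at -0.22 in the 5 and 0.27 in the 16, and Lrp5 at 0.10 in the 5 and 0.83 in the 16 (adjusted p 7.32e-03 and 0.0243, limma). Both co-receptors lost their call on the deposited scale (adjusted p 0.296 and 0.365), and Lrp5 lost it in 3 of 7 alternatives. Wnt7b and Ctnnb1 passed in every alternative run. Axin1, a scaffold of the complex that degrades beta-catenin, had r 0.68 with Ccnd1 over tumours but did not pass (adjusted p = 0.898, limma).

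Of 10 tested genes of cyclin D1 turnover and export 2 passed (20.0%), the share found over all genes (19.6%). Cryab (alpha B-crystallin, a chaperone that also serves as a cofactor of a cyclin D1 ubiquitin ligase) averaged 1.21 in the tumours with high Vim and -0.47 in the others (adjusted p = 1.19e-04, limma). Its ranges overlapped, at 0.34 to 1.86 in the 5 and -2.78 to 0.96 in the 16. Skp2, the substrate receptor of a related ligase, averaged -0.05 in the 5 and -0.16 in the 16 (adjusted p = 0.0292, limma), a difference whose sign turned under quantile normalization and whose call was lost with the slide run as a block (adjusted p = 0.162). Counting all alternatives, Skp2 lost its call in 2 of 8, whereas the call of Cryab held in every one. Xpo1, the nuclear export receptor, did not pass (adjusted p = 0.237, limma).

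Of 14 listed neighbours of Ccnd1 on chromosome 7 of the mouse, 5 were tested, and they lie 5 to 12 protein-coding genes away. Of these 1 passed (20.0%) and none lacked overlap, near the 19.6%, 6.04% and 1.44% over all genes. Ano1, a chloride channel 5 protein-coding genes away, averaged 4.00 in the tumours with high Vim and 3.65 in the others (adjusted p = 0.393, limma). Fadd, an adaptor of death receptors 6 genes away, averaged 0.54 in the 5 and 0.43 in the 16 (adjusted p = 0.941, limma). The small differences of Ano1 and Fadd changed sign with the scaling, under quantile normalization for Ano1 and on the deposited scale for Fadd. Cttn (cortactin, an actin-binding protein) 8 genes away averaged 0.29 in the 5 and -0.30 in the 16 (adjusted p = 0.260, limma).

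Dhcr7, the last enzyme of a branch of cholesterol synthesis, lies 11 genes away and averaged 0.66 in the 5 and 1.11 in the 16 (adjusted p = 4.98e-03, limma). Nadsyn1, an enzyme of NAD synthesis next to it, averaged -0.13 in the 5 and -0.0037 in the 16 (adjusted p = 0.637, limma). The nearest neighbour with a probe, Lto1, was measured on 29 arrays and overlapped between the sets, at -0.69 to 2.89 in the 5 and -1.30 to 2.76 in 14 of the 16. The growth factor genes Fgf15, Fgf4 and Fgf3 were measured on 25, 23 and 25 arrays, and Mrgprf and Mrgprd on 23 each. All 5 overlapped between the sets and were not tested. Mrgprf, 3 genes away, had a median of 2.68 in 4 of the 5 tumours and 0.70 in 14 of the 16. Fgf3, 4 genes away, had a median of 1.65 in the 5 tumours and -0.02 in 13 of the 16. Ppfia1, Shank2 and Tpcn2 were not analysed here.

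In the Myc network 2 of 11 tested genes passed (18.2%, against 19.6% of all genes). Beside Myc, these were Mga, which also pairs with Max, at 0.05 on average in the tumours with high Vim and -0.33 in the others (adjusted p = 1.41e-03, limma). Its call was lost under quantile normalization (adjusted p = 0.121). Mxd4, an antagonist of Myc that pairs with Max, averaged -0.16 in the 5 and 0.64 in the 16 but did not pass (adjusted p = 0.961, limma). Over all 107 tested genes of the lists around cyclin D1, 22 passed (20.6%) and 5 were higher in the 5 without overlap (4.67%), namely Ccnd1, Cdkn2d, Fgfr1, Ets1 and Wnt7b. Both shares are near those over all genes. Myc was the 1 gene lower without overlap.

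The genes most alike to Ccnd1 were found by Pearson correlation of tumour means over 21 tumours, among 6545 genes with a mean in every tumour. The 10 highest ran between 0.94 and 0.95, where the median over all genes was 0.08. They were Sh3bgrl3, Plec (plectin, a linker of cytoskeletal filaments), Tspo (a protein of the outer mitochondrial membrane), Igfbp4 (a binding protein of insulin-like growth factors), Vim, Lrp1 (an endocytic receptor), Lgals1 (galectin 1), Timp1 (an inhibitor of matrix metalloproteinases), Dab2 (an endocytic adaptor) and Tnfaip2. All 10 were higher in the 5 tumours without overlap. Igfbp4, for example, ran between 2.11 and 3.54 in the 5 and between -2.94 and -0.83 in the 16. Correlations over all tumours are set largely by the gap between the 2 sets. The genes of a correlation were also read on the same arrays and against 1 reference. These correlations are therefore descriptions with no p. Within the 16 tumours the correlations of the 10 genes with Ccnd1 were lower, from 0.26 for Lgals1 to 0.56 for Tnfaip2, where the median over all genes was 0.10. Of the 10 genes, 1 (Timp1) differed among the 16 tumours (adjusted p = 0.033, limma), where 11.7% of all genes did.

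At the other end were Lcn2 (lipocalin 2, a secreted protein that binds iron carriers of bacteria) at r -0.94, Epcam (an adhesion molecule of epithelia) at -0.93, F11r (a tight junction protein) at -0.93, Spint2 (an inhibitor of serine proteases) at -0.92, and Myc at -0.90. Myc was thus number 5 from the lowest of 6545 genes. Lcn2 ran between -1.45 and 0.52 in the 5 tumours and between 3.18 and 6.87 in the 16. F11r had the largest negative correlation of these 5 genes within the 16 (-0.62) and did not pass the F test across tumours (adjusted p = 0.0699, limma), though it did under quantile normalization (adjusted p = 1.83e-04). On the deposited scale, 5 of the 10 most alike and 0 of the 5 least alike genes were the same. Without tumour 656 it was 9 and 4, and without tumour 670 it was 9 and 5.

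**Figure D4:**
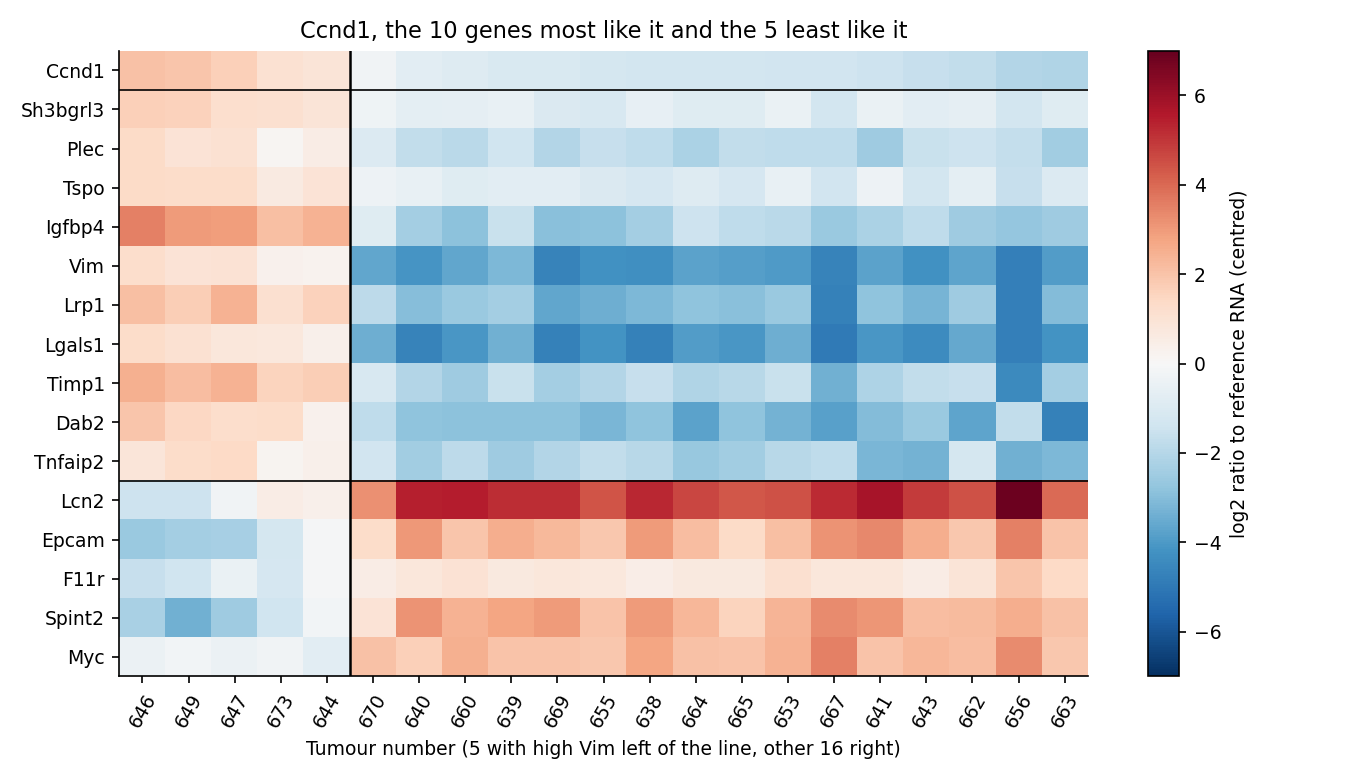
Levels of Ccnd1, the 10 genes most alike to it and the 5 least alike in each of 21 tumours, as colour for log2 of tumour over reference RNA centred on the array median. The 5 tumours with high Vim are the columns on the left. In them the 10 genes lie above 0, as Ccnd1 does, and in the other 16 they lie below 0.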

How the data were processed

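The authors deposited dye ratios on a log2 scale, as read from the values. Their background correction and normalization, and the genome build, are not given in the labels or files. The deposited log2 table held 726515 values, with 24.1% of cells blank. Of these, 15512 (2.14%) at a repeated top value were treated as missing. Array orientation came from the first eigenvector of correlations between the differences of each tumour's 2 arrays, since which array carries which dye is not given. Each array was centred on its median. Replicate numbers of a tumour's arrays follow the order of deposit.

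Probes with both arrays measured in at least 15 of 21 tumours were tested with limma 3.58.1 in R 4.3.3 (tumour as factor, moderated F, Benjamini-Hochberg, threshold 0.05), checked on simulated data. Probes of a gene were averaged for tests on 7629 genes. Symbols came from the platform annotation: 16874 probes had 1 symbol, 134 several and 5792 none. Gene neighbours came from RefSeq's GRCm38.p6 order. Precision is limited by the 2 arrays per tumour. Correlation tests drew 100000 permutations.

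Members and gene lists were chosen with earlier results of these data known. The text names Ccnd1, Myc and Vim, measured D cyclins, their kinases and neighbours, up to 4 members of each other list with the smallest adjusted p past the threshold and 2 with the largest correlation with Ccnd1, and the 10 most and 5 least alike genes. Alternatives changed centring, normalization, dye, slide run, top values, the filter and the arrays included.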

Additional observations from a re-analysis of the deposited data

How the results depend on the processing

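No paired analysis was possible because replicate numbers only name the 2 arrays of 1 RNA and pair nothing across tumours. The count of 1754 probes that differ between tumours among 9407 became 982 of 4038 with both arrays of all 21 tumours required, 860 of 22477 with at least 2 tumours, and 1108 with the slide run as a block. It was 2504 after quantile normalization, 2479 with dye orientation as a covariate and 2068 of 9638 with Gapdh control spots apart, and ran between 1404 and 2150 with 1 array left out. The 22 of 107 list genes that differ became 13 of 53 and 11 of 143 under those filters, and 18 to 27 with 1 array left out. The adjusted p of Ccnd1 (limma) ran between 3.71e-07 and 1.51e-05 with 1 array left out. It was 0.346 among the 16 tumours and 1.0 among the 5, sets chosen after seeing the data. These 2 F tests covered fewer tumours but kept the error of the fit over all 21. Under every other alternative run the adjusted p of Ccnd1 stayed under the threshold. Of 34 other named genes that passed, 20 passed in every alternative and with each array left out, and of 16 that did not pass, 13 passed in none of the alternatives, single arrays left out apart. The Ccnd1 difference between the 5 and the 16 tumours ran between 2.69 and 2.98 with 1 tumour or 1 replicate number left out and between 2.77 and 2.97 otherwise. The correlation with Myc over 21 tumours ran between -0.92 and -0.73 with 1 left out and between -0.90 and -0.69 otherwise. Within the 16 tumours it was 0.37 (permutation p = 0.155) on the deposited scale, ran between -0.46 and 0.19 with 1 left out, and was 0.19 (permutation p = 0.453) without replicate 1; the cause was not tested. Each gene of Ccnd1, Myc and Vim has 1 probe, so taking each probe alone could not be run. The median difference over all genes was 0.06 with centred arrays, 0.01 as deposited and -0.09 after quantile normalization. Precision is limited by 2 arrays per tumour, and signal over background is not given by the ratios.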

Other observations

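Tumour 670, the highest of the 16 in Ccnd1, held the highest value of the 16 more often than any other of them in genes higher in the tumours with high Vim, a position seen on 1 of its 2 arrays. Over 395 genes other than Ccnd1 that were higher in the 5 tumours without overlap and had a mean in each of the 16, it held the highest value of the 16 in 88 (22.3%), and the next tumour, 641, in 50 (12.7%). Over 108 genes lower in the 5 it held the lowest value of the 16 in 20 (18.5%), close to tumour 656 with 21. Its mean levels of the mesenchymal and the fibrillar matrix lists were the highest of the 16 as well. Over whole profiles it was not the nearest, with a median correlation of 0.21 with the 5 tumours, where tumour 640 had 0.31 and tumour 641 had 0.29. The median position of tumour 670 over the 395 genes was 0.18 of the way between the median of the 16 and that of the 5. Its 2 arrays did not share this position, which was 0.40 on replicate 2 and -0.0013 on replicate 1. The array that alone among the 32 read Ccnd1 above 0 was replicate 2. These are values of genes and a tumour picked after their levels were seen, with no test.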
